A study of Mus musculus with 8 samples.

Results

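H3K9ac, the acetylated form of lysine 9 on histone H3 and a chromatin mark of active promoters and enhancers, was measured at the genes of the PR-domain (Prdm) family in the epithelium of the mouse ileum. All rows of the deposited table named for Prdm1, Prdm2, Prdm4, Prdm10, Prdm15, Prdm16 or 5930403L14Rik were taken, the last because it is the long non-coding RNA at the Prdm16 promoter. This gave 10 regions under 7 gene names, of 11251 regions in all. The genes were selected on the butyrate against vehicle difference of these same libraries: the authors' deposited table called Prdm2 and a fit of the reads called the 5930403L14Rik region. For that reason every difference between the groups at these regions is given as a description and supports nothing further.

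The butyrate group was wild-type C57Bl/6 mice that received 150 mM butyrate, a bacterial short-chain fatty acid that inhibits histone deacetylases, for 7 days, and the vehicle group was wild-type C57Bl/6 mice given vehicle. Epithelial cells came from the terminal ileum, with 3 H3K9ac libraries per group (S4, S5 and S6 for butyrate, S1, S2 and S3 for vehicle), and the 2 input libraries were not analysed here. The labels do not say how butyrate was given, or whether each library came from its own mouse, so the spread between libraries may be partly technical. Values are RPKM, read numbers divided by region length and by the effective library size, which allows for differences in length between regions. They were not corrected for input or for base composition, and levels of different regions are compared within that limit.

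The 6 libraries held between 1255251 and 1828591 reads in regions, with a median of 82 to 120 reads per region. The deposited scaling sets the libraries to a like total over regions, so a change of acetylation common to all regions could not be seen. In a bulk preparation fewer cells with a mark and less of the mark per cell cannot be told apart. The epithelial label was checked against marker genes: 12 of 12 epithelial marker genes had a region, with Epcam, an epithelial adhesion molecule, at 8.24 ± 0.565 RPKM in butyrate and 7.42 ± 0.326 RPKM in vehicle (SD, n = 3 each). Of these 12, 5 had a higher and 7 a lower mean in butyrate. Their log2 fold changes had a median of -0.09, beside 0.00 over all 10529 regions tested. Limma called 0 of the 12, as it called 0 of all 10529 regions. Of 11 immune cell markers 2 had a region, both under 1 RPKM on average over the 6 libraries, and none of 8 stromal and endothelial markers had one. The 4 markers of ileum and proximal gut included 3 with a region.

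PR-domain proteins carry a PR domain, related to the SET domain of histone methyltransferases, usually followed by zinc fingers that bind DNA. Some methylate histones themselves and many act by bringing in methyltransferases, deacetylases or other cofactors, so the family links DNA sequence to chromatin state. In the mouse small intestine PRDM1 (Blimp-1) keeps the epithelium in its suckling state and falls away at weaning, and PRDM16, best known for brown fat identity, has been tied to fatty acid oxidation in the upper intestinal epithelium.

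Promoter sequences are shown for 4 starts that differ in how they lie to an H3K9ac region. They run from 250 bases before to 50 bases after a RefSeq start (build GRCm38.p6), 5′ to 3′ on the gene's own strand, and capitals mark a GC box (GGGCGG or its complement CCGCCC) or a CCAAT box (CCAAT or its complement ATTGG). The first 2 are the neighbouring starts of Prdm16 (chr4:154636824-154637123, minus strand) and of 5930403L14Rik (chr4:154636318-154636617, minus strand), which lie close together. The Prdm10 promoter (chr9:31280299-31280598, plus strand) lies inside its region, and the Prdm1 promoter (chr10:44458699-44458998, minus strand) lies just outside one.
Prdm16: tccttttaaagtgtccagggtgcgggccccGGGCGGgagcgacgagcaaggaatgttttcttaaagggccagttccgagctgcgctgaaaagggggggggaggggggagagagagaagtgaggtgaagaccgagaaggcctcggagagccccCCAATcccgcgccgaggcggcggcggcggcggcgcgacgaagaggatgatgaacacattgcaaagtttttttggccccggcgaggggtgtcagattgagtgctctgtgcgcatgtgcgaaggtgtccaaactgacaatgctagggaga
5930403L14Rik: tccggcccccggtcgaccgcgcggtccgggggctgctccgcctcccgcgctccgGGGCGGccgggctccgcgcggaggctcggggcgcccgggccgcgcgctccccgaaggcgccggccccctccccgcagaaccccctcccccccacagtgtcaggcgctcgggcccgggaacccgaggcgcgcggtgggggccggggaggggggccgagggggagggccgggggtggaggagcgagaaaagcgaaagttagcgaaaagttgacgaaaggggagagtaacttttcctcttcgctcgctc
Prdm10: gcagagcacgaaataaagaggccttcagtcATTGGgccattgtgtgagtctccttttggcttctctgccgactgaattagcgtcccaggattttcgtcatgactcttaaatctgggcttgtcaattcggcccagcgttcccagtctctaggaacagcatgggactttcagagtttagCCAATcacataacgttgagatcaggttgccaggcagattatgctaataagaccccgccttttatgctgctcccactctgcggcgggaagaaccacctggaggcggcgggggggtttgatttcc
Prdm1: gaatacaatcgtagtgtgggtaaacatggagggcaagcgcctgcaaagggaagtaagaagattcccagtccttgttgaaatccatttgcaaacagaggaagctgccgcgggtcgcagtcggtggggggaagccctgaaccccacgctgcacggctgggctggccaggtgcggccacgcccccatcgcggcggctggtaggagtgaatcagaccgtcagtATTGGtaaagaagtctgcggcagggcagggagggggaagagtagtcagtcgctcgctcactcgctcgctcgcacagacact

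The 300 bases at the lncRNA start held 42 CpG dinucleotides and 76.67% G or C, against 24 CpG and 61% at the Prdm16 start, 20 CpG and 59.67% at the Prdm1 start, and 12 CpG and 51.67% at the Prdm10 start. The median was 24 CpG over the 8494 RefSeq promoters whose start lay in an H3K9ac region and 7 over all 32851 promoters. Both promoters on chromosome 4 held 1 GC box, a motif found in 67.5% of promoters with their start in a region and in 35.7% of all promoters. A CCAAT box was present once at Prdm16, once at Prdm1 and at 2 places at Prdm10, where 34.1% of promoters with their start in a region and 37.4% of all promoters held it. None of these 4 windows held TATAAA, the E-box CACGTG, the AP-1 motif TGACTCA, the GATA motif AGATAA or GTGAAAG, the core of the PRDM1 site, all searched on both strands. Their shares of all promoters were 13.6%, 7.15%, 5.20%, 11.2% and 4.24% in that order. These matches are letters in a window and were not tested for binding.

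H3K9ac around the Prdm16 start formed 2 regions, and both were lower in every butyrate library than in any vehicle library. The region downstream of the start, which the deposited table names for 5930403L14Rik (chr4:154635029-154636825, 1796 bp), had 4.74, 2.92 and 3.69 RPKM in butyrate S4, S5 and S6, against 5.80, 5.18 and 5.49 RPKM in vehicle S1, S2 and S3. The groups did not overlap, and butyrate S5 was the lowest library. The reads behind these values numbered 189, 94 and 149 in butyrate and 269, 166 and 204 in vehicle. The group means were 3.78 ± 0.914 RPKM in butyrate and 5.49 ± 0.313 RPKM in vehicle (SD, n = 3 each), a ratio of 0.689. The log2 fold change of RPKM + 1 was -0.46 ± 0.12 (SE, limma), butyrate over vehicle.

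The second region lay upstream of the Prdm16 start (chr4:154637344-154638112, 768 bp) and had 2.70, 1.38 and 3.01 RPKM in butyrate, against 3.18, 3.36 and 3.59 RPKM in vehicle. It had fewer reads, 46, 19 and 52 in butyrate and 63, 46 and 57 in vehicle, and S5 was again the lowest butyrate library. Its means were 2.36 ± 0.864 RPKM in butyrate and 3.37 ± 0.206 RPKM in vehicle (SD, n = 3 each), a ratio of 0.700 and a log2 fold change of -0.41 ± 0.17 (SE). This difference rested largely on S5: without that library its log2 fold change was -0.18. The downstream region had -0.32 without S5 and stayed between -0.60 and -0.32 whichever library was left out.

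**Figure D1:**
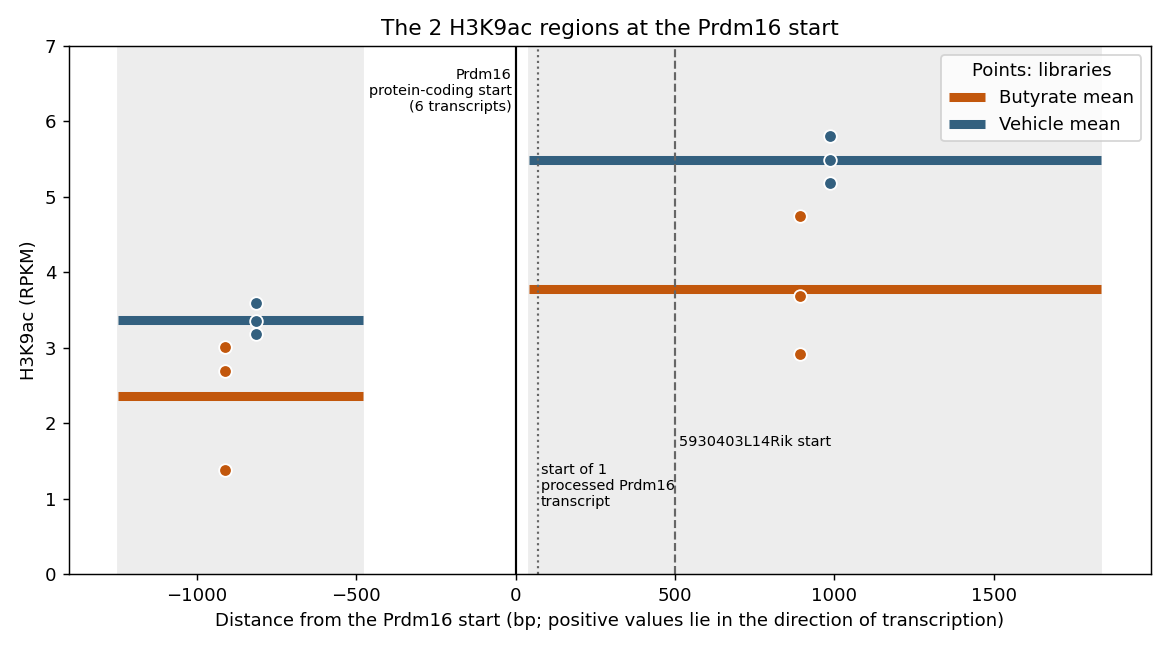
H3K9ac (RPKM, vertical axis) of the regions on either side of the Prdm16 start against the distance in base pairs from the start of 6 protein-coding transcripts (horizontal axis). Grey bands are the regions, thick lines the group means and points the libraries, butyrate (orange) and vehicle (blue). In both bands the 3 butyrate points lie under the 3 vehicle points, and the GENCODE M21 protein-coding start falls in the gap between the bands.

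The start of the protein-coding Prdm16 transcripts of GENCODE M21 lay in neither region. Of the 7 such transcripts, 6 begin at position 154636866, which is 41 bp beyond the upstream-facing edge of the downstream region, and the other begins 48 bp beyond it. The gap between the regions was 519 bp wide, with 478 bp from the commonest start to the upstream region. The upstream region did cover the starts of 5 predicted RefSeq Prdm16 mRNAs. The downstream region covered the start of 1 processed Prdm16 transcript, at 154636797, and that of the lncRNA, at 154636367. The lncRNA starts 499 bp downstream of the Prdm16 start on the same strand, so the signal over the region cannot be divided between the gene pair. Between them the regions flank the promoter, and no further region overlapped the 320.7 kb body of Prdm16.

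Reads pooled over both regions gave 4.13, 2.46 and 3.48 RPKM in butyrate and 5.02, 4.63 and 4.92 RPKM in vehicle. The downstream region was the stronger in 6 of 6 libraries, by 1.76, 2.12 and 1.23 times in butyrate and 1.83, 1.54 and 1.53 times in vehicle, so the flanks kept their order while their ratio spread more widely in butyrate. The spread of the butyrate libraries at the downstream region, a coefficient of variation (SD over mean) of 24.2%, was above the 8.37% that counting of reads alone gives. In vehicle it was 5.69%, against 6.93% from counting alone.

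Whether the downstream region was called depended on the model. A fit of these same reads chose the region, so the adjusted p-values here describe the models and are no separate test of it. The authors' deposited table gave it a log2 fold change of -0.53 and an FDR of 0.116, the 37th smallest, outside that table's limit of 0.1. Reads per region were recovered from RPKM, and limma's voom model of them, over regions of 25 or more mean reads, gave -0.55 ± 0.13 (SE) with a Benjamini-Hochberg adjusted p of 0.0380, and that fit called 9 of 9048 regions (0.0995%), of which 5 (0.0553%) were lower in butyrate. Voom over all regions gave it an adjusted p of 0.0341 and called 16 (0.142%), and limma on log2(CPM + 0.5) gave 0.0360 and called 7 (0.0665%). In the voom fit over regions of 25 or more mean reads the adjusted p was 0.00930 without S4 and was above 0.05 when any other library was left out: 0.420 without S5, 0.197 without S6, 0.204 without S1, 0.0501 without S2 and 0.137 without S3. The main test, limma on log2(RPKM + 1), gave it an adjusted p of 0.504 and made 0 calls among 10529 regions (0%), with 765 (7.27%) at an unadjusted p under 0.05. For the upstream region the deposited table had a log2 fold change of -0.49 and an FDR of 0.529.

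Prdm2 encodes RIZ, a PR-domain protein with activity on H3 lysine 9 methylation and known as a tumour suppressor. Its start carried the highest H3K9ac level among the 10 regions and was higher in every butyrate library than in any vehicle library. The region (chr4:143211854-143213363, 1509 bp) covers the start of 2 of the 3 protein-coding Prdm2 transcripts of GENCODE M21. It had 10.96, 10.69 and 9.77 RPKM in butyrate, against 8.17, 8.13 and 8.24 RPKM in vehicle. The groups did not overlap, and the lowest butyrate library, S6, lay well above the highest vehicle library, S3. Means were 10.5 ± 0.623 RPKM in butyrate and 8.18 ± 0.0542 RPKM in vehicle (SD, n = 3 each), a ratio of 1.28 and a log2 fold change of 0.32 ± 0.07 (SE). Leaving out any library kept the log2 fold change between 0.29 and 0.37.

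The vehicle values at the Prdm2 start were closer together than read counting alone would leave them. Their coefficient of variation was 0.662%, whereas the 219 to 318 reads per vehicle library give 6.22% from counting. In butyrate it was 5.95%, against 5.54% from counting. A spread under that of counting was not particular to this region, but at no other Prdm region was the spread so small a share of it. In butyrate the spread was 2.675% against 9.127% from counting at the Prdm4 start and 2.345% against 5.072% at the Prdm10 start. Other regions lay above counting. The authors' deposited table gave the region a log2 fold change of 0.36 and an FDR of 0.0682, the 19th smallest of the table, and called it. This call was the ground for choosing the gene, so it is no separate evidence. That table called 28 of 11251 regions (0.249%) at an FDR under 0.1, of which 11 (0.0978%) were higher in butyrate. The voom fit over regions of 25 or more mean reads gave 0.35 ± 0.10 (SE), a wider SE than that of the main test. Its adjusted p was 0.190 and it did not call the region.

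A second H3K9ac region lay in the body of Prdm2, in intron 6 (chr4:143159309-143162371, 3062 bp). The deposited table names it for Mir7021, so it is not among the 10, but it covers the starts of 2 predicted RefSeq Prdm2 transcripts, at 143162152 and 143162028. It had 2.56, 2.41 and 2.52 RPKM in butyrate, against 2.65, 2.69 and 2.27 RPKM in vehicle, and the groups overlapped. The log2 fold change there was -0.01 ± 0.11 (SE). Within each library the level at the start was 4.28, 4.44 and 3.87 times that in the intron in butyrate and 3.09, 3.02 and 3.62 times in vehicle. The ratio averaged 4.20 ± 0.294 in butyrate and 3.24 ± 0.329 in vehicle (SD, n = 3 each), and every butyrate ratio was above every vehicle ratio. The ratio contains the start value that chose the gene, so it too is a description.

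**Figure D2:**
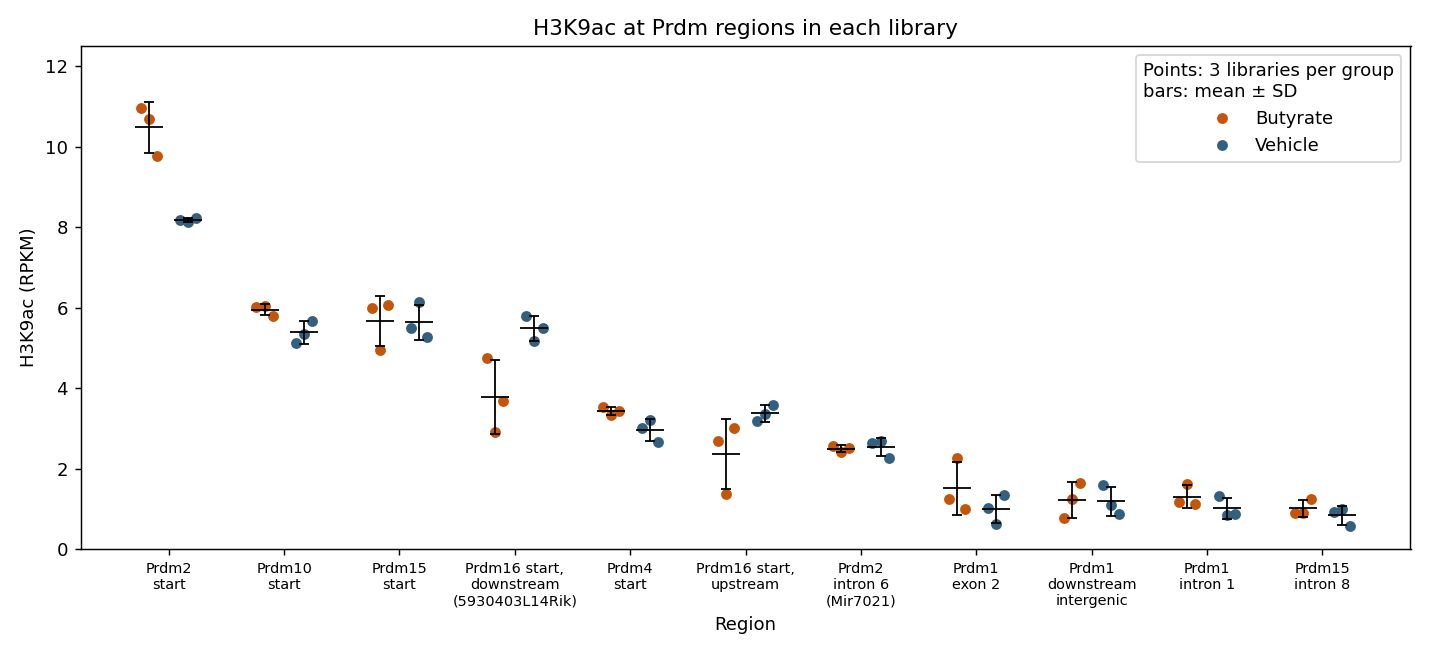
H3K9ac (RPKM, vertical axis) at the 10 Prdm regions and the Prdm2 intron 6 region (horizontal axis, ordered by mean level), with a point for each of 3 butyrate (orange, left) and 3 vehicle (blue, right) libraries and bars for mean ± SD. The Prdm2 start stands above all others at 10.5 RPKM in butyrate and 8.18 RPKM in vehicle, both Prdm16 regions have butyrate points under all vehicle points, and the Prdm1 points of both groups mix near 1 RPKM.

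The starts of Prdm10, Prdm4 and Prdm15 had moderate to high H3K9ac and smaller differences. PRDM10 is a zinc-finger transcription factor that binds promoters in mouse cells. Its region (chr9:31279093-31282262, 3169 bp, the longest of the 10) had 6.02, 6.04 and 5.79 RPKM in butyrate, against 5.12, 5.36 and 5.68 RPKM in vehicle. The groups lay close without overlapping, with butyrate S6 just above vehicle S3. Means were 5.95 ± 0.139 RPKM in butyrate and 5.39 ± 0.278 RPKM in vehicle (SD, n = 3 each), a log2 fold change of 0.12 ± 0.08 (SE). It covers the start of 2 of the 4 protein-coding Prdm10 transcripts, and the RefSeq start at 31313427 further into the gene had no region.

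PRDM4 is a zinc-finger protein that partners with the arginine methyltransferase PRMT5. At the Prdm4 start (chr10:85915498-85917187, 1689 bp) H3K9ac was 3.52, 3.34 and 3.45 RPKM in butyrate, against 3.01, 3.22 and 2.66 RPKM in vehicle, again with no overlap and a small gap. Means were 3.44 ± 0.0919 RPKM in butyrate and 2.96 ± 0.280 RPKM in vehicle (SD, n = 3 each), a log2 fold change of 0.16 ± 0.10 (SE), which was 0.11 without vehicle S3. The region covers the starts of 3 of 3 protein-coding Prdm4 transcripts.

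PRDM15 is known in mouse embryonic stem cells as a regulator that upholds naive pluripotency. Its start (chr16:97849697-97852146, 2449 bp) had 6.00, 4.95 and 6.06 RPKM in butyrate, against 5.49, 6.13 and 5.27 RPKM in vehicle. The libraries of the groups mixed, with means of 5.67 ± 0.625 RPKM in butyrate and 5.63 ± 0.446 RPKM in vehicle (SD, n = 3 each) and a log2 fold change of 0.01 ± 0.09 (SE). A 500 bp region in intron 8 of Prdm15 (chr16:97817366-97817866) had only 10, 8 and 14 reads in butyrate and 12, 9 and 6 reads in vehicle. Its pooled level was 1.02 RPKM in butyrate (exact Poisson 95% interval 0.699 to 1.44) and 0.839 RPKM in vehicle (0.553 to 1.22), intervals that overlap and cover counting error only. It was the only Prdm region under the minimum of 1 RPKM for the main fit, so 9 of 10 were fitted.

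Prdm1 had 3 weak regions in which the libraries of the groups mixed. The exon 2 region (chr10:44456236-44457026, 790 bp) had 1.25, 2.26 and 1.01 RPKM in butyrate, against 1.03, 0.638 and 1.35 RPKM in vehicle. Its highest library was butyrate S5, with 32 reads, and its lowest vehicle S2, with 9 reads. The intron 1 region (chr10:44457540-44458535, 995 bp) had 1.18, 1.63 and 1.12 RPKM in butyrate, against 1.32, 0.845 and 0.875 RPKM in vehicle, and S5 was again the highest. The intergenic region downstream of the gene (chr10:44426646-44428294, 1648 bp) had 0.766, 1.25 and 1.64 RPKM in butyrate, against 1.60, 1.09 and 0.881 RPKM in vehicle. Log2 fold changes were 0.31 ± 0.22 in exon 2, 0.20 ± 0.19 in intron 1 and 0.01 ± 0.21 in the intergenic region (SE). Without S5 the exon 2 value was 0.10 and the intron 1 value 0.10.

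None of the 3 protein-coding Prdm1 starts of GENCODE M21 lay in a region. The intron 1 region ended 152 bp short of the start at 44458687 and 213 bp short of the start at 44458748, whose sequence is printed above, and the third start, at 44457210, lay between the exon 2 and intron 1 regions. The intron 1 region did cover the starts of 2 predicted RefSeq transcripts. PRDM1 is also expressed by plasma cells and other lymphocytes. The summed level of the immune marker regions, those of Ptprc and Cd3g, was 1.36 to 2.56 RPKM in butyrate and 1.55 to 1.87 RPKM in vehicle, and the other 9 of the 11 immune markers had no region. The part of immune cells in the Prdm1 values was not tested.

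Across the 10 regions, 8 had a higher mean in butyrate and 2, both at Prdm16, a lower one. Groups did not overlap at 5 of the 10: the starts of Prdm2, Prdm10 and Prdm4 were higher in butyrate and both Prdm16 regions lower. Over all 11251 regions the groups did not overlap at 14.2%, with 6.83% higher and 7.35% lower in butyrate. Because the contrast was used to choose the genes, nothing is read from this count.

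**Figure D3:**
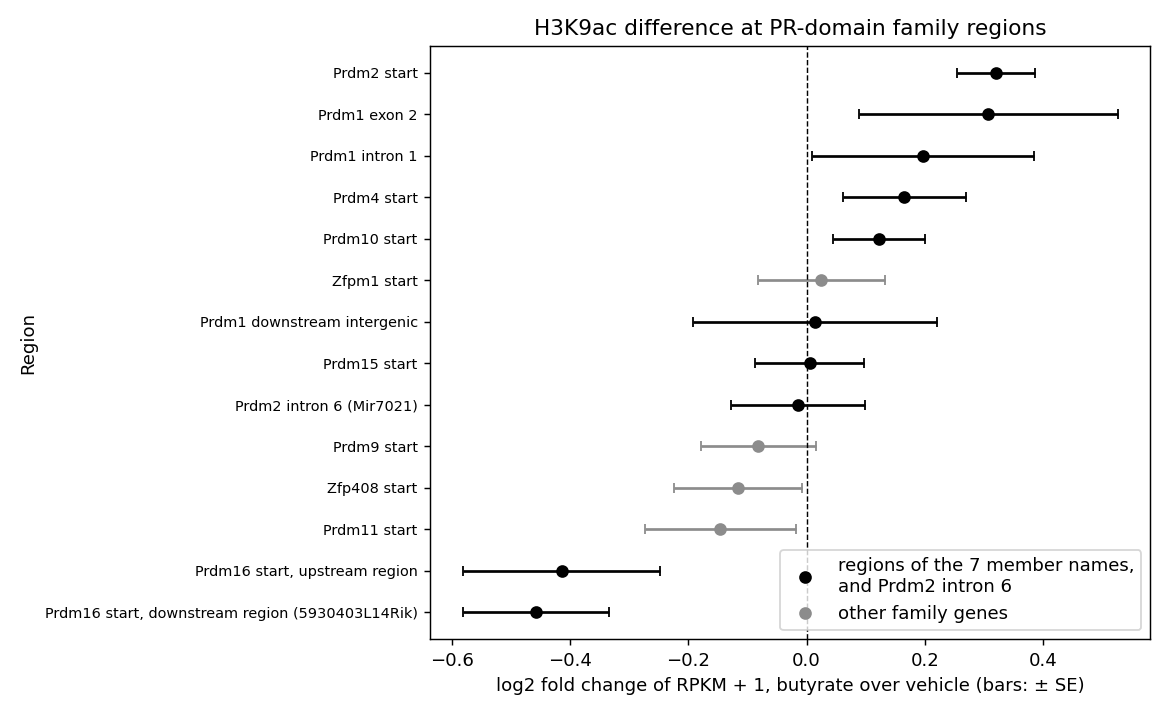
Log2 fold change of RPKM + 1, butyrate over vehicle, with SE bars (horizontal axis) for the Prdm regions in the fit and the Prdm2 intron 6 region (black) and for other genes of the family (grey), ordered by value. Both Prdm16 regions are at the lower end (-0.46 and -0.41), the Prdm2 start is at the upper end (0.32), and the Prdm1 regions have the widest bars.

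Levels over all 6 libraries ranged widely. Level was not itself the ground for choosing the genes. The calls that chose them came from the same reads, however, so the levels of the called regions are not independent of the choice. The Prdm2 start had a mean of 9.33 RPKM, above 99.8% of all regions and above 99.7% of those over a protein-coding start. The Prdm10 start (5.67 RPKM) and Prdm15 start (5.65 RPKM) followed, higher than 93.8% and 93.6% of all regions. The downstream Prdm16 region had 4.64 RPKM, higher than 84.3% of all regions, while the Prdm4 start (3.20 RPKM) and the upstream Prdm16 region (2.87 RPKM) lay on either side of the median of 3.09 RPKM. The Prdm1 regions in exon 2, downstream and in intron 1 had 1.26, 1.21 and 1.16 RPKM, higher than 11.1% to 13.1% of all regions, and the Prdm15 intron 8 region came last with 0.926 RPKM.

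Neighbours in this order were compared within libraries by an exact sign-flip permutation test, two-sided, of log2(RPKM + 1), over 9 pairs. With 6 libraries the smallest possible p is 0.03125, so no pair could pass after adjustment over 9 pairs unless most of them reached it. The pairs were also neighbours in mean level, which made that unlikely from the start. The order was taken from the means of these same 6 libraries, both groups together, so the data tested also set the pairs and their direction. The Prdm2 start was above the Prdm10 start in 6 of 6 libraries, by 0.62 ± 0.12 on the log2 scale (SD, n = 6; exact permutation p = 0.03125, adjusted p = 0.281). The Prdm10 and Prdm15 starts were not distinguished, each being the higher in 3 of 6 libraries (exact permutation p = 0.906). The upstream Prdm16 region was above the Prdm1 exon 2 region in 5 of 6 libraries by 0.78 ± 0.64 on the log2 scale (SD, n = 6; exact permutation p = 0.0625, adjusted p = 0.281). The remaining 6 pairs had exact permutation p-values from 0.0938 to 0.969, and 0 of the 9 pairs passed at an adjusted p of 0.05. Given the limit above, that count cannot decide whether the order holds.

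Base composition, which the choice of genes did not use, differed between the Prdm16 and Prdm1 regions, which lie differently to their starts; the promoter windows of the genes were close, with 24 and 20 CpG as given above. The Prdm16 regions were 70.7% G or C downstream and 71.9% upstream, above 97.1% and 97.6% of all regions, where the median was 52.2%. Their ratios of observed to expected CpG were 0.884 and 0.851, against a median of 0.588 over all regions and 0.649 over those at a protein-coding start. The Prdm2 start had the highest ratio of the Prdm regions, 0.935, with 62.6% G or C. The Prdm1 exon 2 and intergenic regions had ratios of 0.390 and 0.355 and the Prdm15 intron 8 region 0.0406. The Prdm1 intron 1 region combined the lowest G or C content, 40.2%, with a CpG ratio of 0.674 and a low level.

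**Figure D4:**
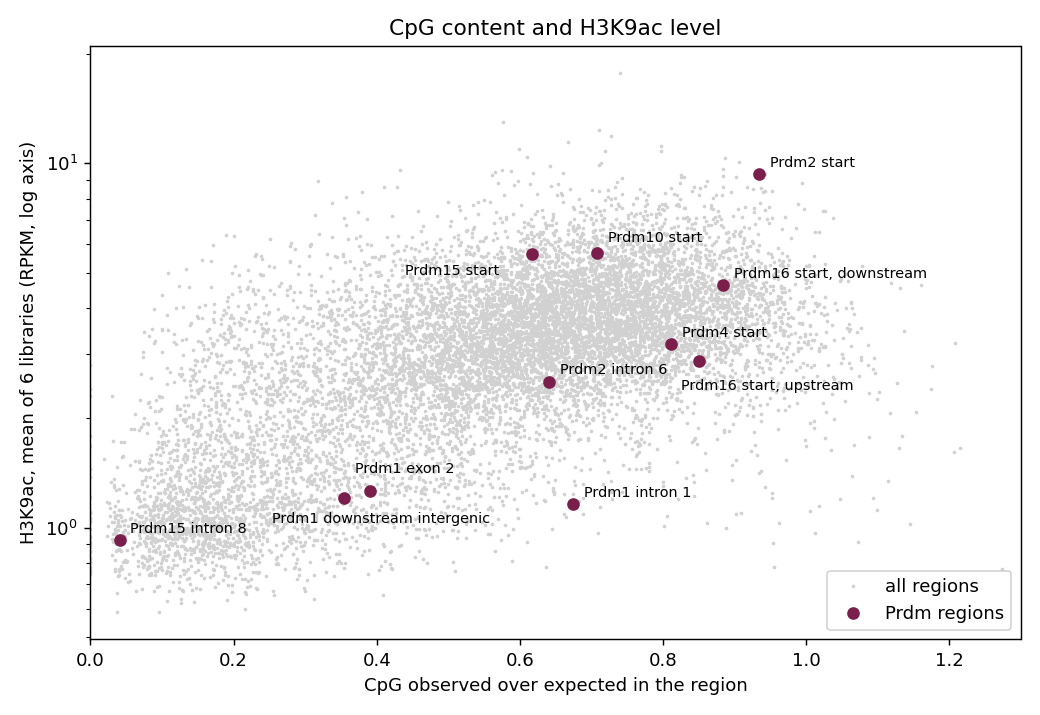
Mean H3K9ac over the 6 libraries (RPKM, logarithmic vertical axis) against the ratio of observed to expected CpG (horizontal axis) for all 11251 regions (grey) and for the Prdm regions with Prdm2 intron 6 (purple). The Prdm2 start has both a high CpG ratio (0.935) and a high level (9.33 RPKM), both Prdm16 regions lie to the right at moderate levels, and the Prdm1 regions lie near the bottom.

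Of 18 genes of the wider PR-domain family, 10 had a region within 5 kb of a start, among them 4 not described so far. PRDM9 places meiotic recombination in the germ line, and its region had 3.62 ± 0.274 RPKM in butyrate and 3.89 ± 0.183 RPKM in vehicle (SD, n = 3 each), a log2 fold change of -0.08 ± 0.10 (SE). The Prdm11 region had 4.90 ± 0.0876 RPKM in butyrate and 5.63 ± 1.36 RPKM in vehicle, with -0.15 ± 0.13. Zfp408 had 3.24 ± 0.317 RPKM in butyrate and 3.59 ± 0.386 RPKM in vehicle, with -0.12 ± 0.11. Zfpm1, which encodes the GATA cofactor FOG1, had 4.35 ± 0.620 RPKM in butyrate and 4.24 ± 0.410 RPKM in vehicle, with 0.02 ± 0.11. Mecom, Prdm6, Prdm8, Prdm12, Prdm13, Prdm14 and Zfpm2 had no region, which says only that the table lists none there. Taking for each gene the region with most reads, 6 of the 10 had a higher mean and 4 a lower one, with a median log2 fold change of 0.02, against 0.00 over all 10529 regions tested.

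Genes whose products work with PRDM proteins showed small differences. Of 15 partners, which included the H3K9 methyltransferases Ehmt1 and Ehmt2, the deacetylases Hdac1 and Hdac2 and the corepressors Ctbp1 and Ctbp2, 13 were fitted. Limma called 0 of them, but it called 0 of all 10529 regions tested, so that count says nothing about this list. Of the 13, 6 had a positive and 7 a negative log2 fold change, with a median of -0.00. The value furthest from 0 was at Ppargc1b, a transcriptional coactivator of mitochondrial genes, with a log2 fold change of -0.21 ± 0.11 (SE). Its region had 3.86 ± 0.589 RPKM in butyrate and 4.58 ± 0.209 RPKM in vehicle. The deposited table names that region for Mir378a, the one used for Hdac1 for Marcksl1 and the one used for Cebpb for A530013C23Rik. Tle3, a Groucho-type corepressor and the member with the most reads, had 4.06 ± 0.289 RPKM in butyrate and 4.09 ± 0.385 RPKM in vehicle (-0.01 ± 0.10).

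Fatty acid oxidation genes, the set tied to PRDM16 in the intestine, had lower means in butyrate at 14 of the 17 fitted and higher means at 3, of 19 genes listed. The 17 genes stand for 16 regions, since Hadha and Hadhb share 1. Limma called 0 of them, as it called 0 of all 10529 regions tested. Their median log2 fold change was -0.13, beside 0.00 over all 10529 regions, of which 5261 were lower and 5268 higher. This list was chosen with earlier results of these data known, so the split is a description. The epithelial marker genes also leaned lower, at 7 of 12, with a median of -0.09. Whether the lower means are tied to PRDM16 was not tested. Pdk4, a kinase that restrains pyruvate oxidation, had the value furthest from 0, -0.39 ± 0.20 (SE), with 2.00 ± 0.657 RPKM in butyrate and 2.96 ± 0.955 RPKM in vehicle.

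Of 6 genes that mark suckling or adult enterocytes and are tied to PRDM1, 4 were fitted. Of these, 1 had a higher and 3 a lower mean in butyrate, and limma called 0, as it did of all 10529 regions tested. Sis, the sucrase-isomaltase of the adult brush border, had 1.26 ± 0.154 RPKM in butyrate and 1.76 ± 0.458 RPKM in vehicle, with -0.28 ± 0.17 (SE). Lct, the lactase of suckling animals, had the most reads, with 2.52 ± 0.316 RPKM in butyrate and 2.72 ± 0.444 RPKM in vehicle (-0.08 ± 0.13).

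The regions whose pattern over the 6 libraries was most like that of the downstream Prdm16 region were those of Bcl3, a nuclear cofactor of NF-kappa B (Pearson r = 0.989), Atp5mpl, a small subunit of the mitochondrial ATP synthase (r = 0.989), and Rab4a, a small GTPase of endosome recycling (r = 0.987), among 5530 regions with at least 100 mean reads. Rab4a, for example, had 3.73 ± 0.535 RPKM in butyrate and 4.85 ± 0.187 RPKM in vehicle. Most like the Prdm2 start were the regions of C87436 (r = 0.984), Psmb8, a subunit of the immunoproteasome (r = 0.984), and Smarcad1, a chromatin remodeller (r = 0.982). Psmb8 had 4.39 ± 0.451 RPKM in butyrate and 3.22 ± 0.105 RPKM in vehicle. These correlations describe 6 points that share libraries and scaling and include the difference between the groups, and they were picked as the highest of the 5530.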

How the data were processed

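H3K9ac chromatin immunoprecipitation libraries of butyrate and vehicle mice (3 each) were used; the inputs were not. Per the labels' protocols, chromatin of nuclear lysates was sonicated, precipitated and sequenced as paired 100 bp reads; the submitters' processing notes name mm10, STAR, Picard, HOMER and edgeR, and how regions were called is not given in the sources used here. The deposited table, per the file headers, holds RPKM per library and, from the authors, group means as RPKM and as CPM, log2 fold changes and log2 CPM, p-values with FDR, and a nearest gene. Column names gave a group and no sample, and 0 other sample columns were present.

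RPKM times length was a whole number of reads within 0.01 for 100% of values, which gave the reads of every region and effective library sizes between 17846924 and 25805595. The main test was limma 3.58.1 (R 4.3.3; trend, robust) on log2(RPKM + 1), a scale that understates the change of weak regions, over the 10529 regions with a mean RPKM of at least 1, with Benjamini-Hochberg adjustment at 0.05. Voom on recovered reads, other scalings, filters and pseudocounts, and leaving out each library were alternatives, and fits were tested on simulated data. Starts came from GENCODE M21 and RefSeq, and promoters from RefSeq, of the same build; 83 of 83 promoters sampled matched the genome. Named were all regions of the Prdm genes, all regions in their bodies, the family list, the largest fold change and most reads of every other list, and the 3 most alike regions; some items under this rule are not reported here. The Prdm genes and all lists were chosen with earlier results of these data known. Intervals cover counting error only, and 7 of the 10 Prdm regions had at least 25 mean reads.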

Additional observations from a re-analysis of the deposited data

How the results depend on the processing

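Limma on log2(RPKM + 1) called 0 of 10529 regions, and the same count of 0 was found with each of 3 other scalings, with other filters and pseudocounts, at an adjusted p of 0.1 and, leaving out each library, over a range of 0 to 0. Models of recovered reads differed: voom called 16 of all regions and 9 of those with 25 or more mean reads, and limma on log2(CPM + 0.5) called 7; the cause was not tested. Among the Prdm regions, the starts of Prdm2, Prdm4 and Prdm10, both Prdm16 regions and the Prdm1 exon 2 and intron 1 regions kept their sign in all alternatives run. At the 5 regions whose groups did not overlap, leaving out 1 library could not turn the sign. All alternatives also used the same reads, so the kept signs are no separate support. Signs turned at values near 0: at the intergenic Prdm1 region in 6 of 16 alternatives (-0.12 to 0.17), at the Prdm15 start in 4 of 16 (-0.04 to 0.09) and at Prdm2 intron 6 in 3 of 16 (-0.07 to 0.02). The order of levels kept 8 of its 9 neighbouring pairs in butyrate libraries alone, 6 in vehicle libraries alone, and 7 to 8 leaving out each library; the pair test without a library was not run, since 5 libraries cannot reach the threshold. No paired analysis was possible because the columns name libraries S1 to S6 and carry no replicate number of the labels. Depth limits the Prdm1 and Prdm15 intron 8 regions most, with means of 9.83 to 42.7 reads.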
